A study of Mus musculus with 12 samples.

Results

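Nascent RNA was compared between mouse embryonic stem cells (ESCs) that lacked Dgcr8 (Dgcr8 KO) and wild-type ESCs. The members were chosen by sample title: the 3 Dgcr8 KO and the 3 wild-type libraries of RNA captured after 4-thiouridine (4sU) labelling, 6 of the 12 libraries of the series. Both groups were grown in Knockout DMEM with fetal bovine serum, LIF and 2i, the pair of inhibitors PD0325901 (which blocks MEK) and CHIR99021 (which blocks GSK3). Both received 4sU at 500 uM for 30 min, and RNA made during that pulse was biotinylated and pulled down. Dgcr8 KO cells were 1 line made earlier, so genotype and cell line cannot be told apart. The labels do not say that replicates were separate cultures, so the p-values measure only the spread between these samples, which may be technical. The titles and genotype labels read Dgcr8 KO, whereas the source label of these samples reads DDX8KO. No unlabelled sample is among the libraries used here. In bulk samples, fewer cells that transcribe a gene and less nascent RNA per cell cannot be told apart.

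DGCR8 is the RNA-binding partner of the nuclease Drosha, and the pair cuts hairpins out of primary microRNA transcripts in the nucleus. Cells without it lack nearly all microRNAs, while the primary transcripts are still made by RNA polymerase II. In mouse ESCs the most abundant microRNAs share the seed AAGUGC, come from the miR-290 and miR-302 clusters and are known as the ESCC family, and they act on mRNAs in the cytoplasm. Because 4sU labels only RNA made during the pulse, the captured RNA reports mainly on transcription and less on the decay that microRNAs control directly.

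Mature microRNAs of the 2 clusters that hold the seed AAGUGC are shown because they are among the molecules that the cells cannot make. Sequences are from RefSeq (GRCm38.p6), written 5′ to 3′, and capitals mark the seed, bases 2 to 8. Of 1738 mature microRNAs in the RefSeq set used, 16 hold AAGUGC within these bases. Of these, 7 come from the miR-290 cluster on chromosome 7 or the miR-302 cluster on chromosome 3. The cluster hairpins Mir292, Mir293, Mir302a, Mir302c and Mir367 have no mature sequence among the 16. The 7 are therefore not a full list of either cluster, and absence here does not show that a microRNA lacks the seed.
mmu-miR-290a-3p: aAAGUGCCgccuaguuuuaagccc
mmu-miR-291a-3p: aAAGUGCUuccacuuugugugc
mmu-miR-291b-3p: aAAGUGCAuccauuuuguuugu
mmu-miR-294-3p: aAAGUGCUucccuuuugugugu
mmu-miR-295-3p: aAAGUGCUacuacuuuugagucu
mmu-miR-302b-3p: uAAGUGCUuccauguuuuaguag
mmu-miR-302d-3p: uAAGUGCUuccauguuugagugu
The 5 microRNAs printed from the miR-290 cluster start with A and the pair printed from the miR-302 cluster with U. All 7 carry the same 6 seed letters. They differ in base 8, in the 3′ part or in both.

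Values below are CPM (read counts relative to library size, after TMM factors that correct for library composition), listed for replicates 1, 2 and 3 in order. A gene was tested when it reached 3 CPM in at least 3 of the 6 libraries, which 13654 of 51467 mouse gene identifiers did. It was called higher or lower when limma gave an adjusted p (Benjamini-Hochberg) below 0.05 and a change of more than 1 on the log2 scale in either direction. By this rule 14.1% of the genes tested were called, 9.43% higher and 4.64% lower in Dgcr8 KO. These shares are the background for each count of calls below. With no limit on the fold change, 53.4% of the genes tested had an adjusted p below 0.05, 28.0% higher and 25.4% lower. At least 53.4% therefore had an unadjusted p under 0.05, and this is the background for counts at that threshold. Counts of 1 or 2 calls in a list can rest on a single library, which is named where it decides them. Of the genes tested, 410 reached 3 CPM in no wild-type library and 246 in no Dgcr8 KO library. These could enter only through the group where they were high, so they had to differ, and they include 371 of the genes called higher and 213 of those called lower. Counts of calls in a list are therefore descriptions. Where a stricter filter, 3 CPM in all 6 libraries, changes a list's count by more than 1.5 times, the stricter count is given too. It tests 11887 genes, of which 755 were called higher and 302 lower. Without the filter, 29038 genes with at least 1 count were tested, of which 2281 were called higher and 1409 lower. These are the background for counts given without the filter.

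Reads over the hairpins of both clusters were examined first, because they are the part of the primary transcript that DGCR8 and Drosha act on. Of 12 annotated hairpins that were tested, 8 were called higher in Dgcr8 KO. Of these 8, Mir302c, Mir302d and Mir367 reached 3 CPM in no wild-type library and passed the filter only through Dgcr8 KO. In the miR-290 cluster (mm10 chromosome 7, 3218626 to 3220841, plus strand), Mir291a was at 38.6, 37.6 and 48.1 CPM in wild-type and 204, 194 and 159 CPM in Dgcr8 KO (log2 change 2.16, SE 0.106, adjusted p = 4.00e-16). Mir295, at the other end of the cluster, was at 33.1, 51.9 and 37.8 CPM in wild-type and 198, 174 and 146 CPM in Dgcr8 KO (log2 change 2.11, SE 0.121, adjusted p = 1.33e-14). Mir294 was at 38.6, 53.6 and 45.5 CPM in wild-type and 163, 181 and 139 CPM in Dgcr8 KO (log2 change 1.82, SE 0.108, adjusted p = 2.31e-14). In each of these 3 the lowest Dgcr8 KO library lay far above the highest wild-type library. Other hairpins of the cluster had smaller log2 changes. Mir290a rose less (log2 change 1.26, SE 0.0965, adjusted p = 6.39e-12), and Mir292 was higher without passing the fold limit (log2 change 0.51, SE 0.0971, adjusted p = 5.90e-05). Mir291b, with 235, 276 and 218 CPM in wild-type and 284, 277 and 230 CPM in Dgcr8 KO, overlapped between the groups (log2 change 0.12, SE 0.08503, adjusted p = 0.230). Mir293 overlapped as well (log2 change 0.22, SE 0.1099, adjusted p = 0.0929). Log2 changes thus ranged from 0.12 to 2.16 among hairpins of 1 locus on 1 strand, and the differences between hairpins were not tested.

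The miR-302 cluster (mm10 chromosome 3, 127545228 to 127545807, plus strand) drew far fewer reads over hairpins of like length. Mir302a was at 2.03, 3.52 and 2.25 CPM in wild-type and 6.799, 7.27 and 11.3 CPM in Dgcr8 KO (log2 change 1.70, SE 0.303, adjusted p = 2.49e-05), and Mir302c was at 0.847, 0.659 and 1.499 CPM in wild-type and 4.67, 5.65 and 6.28 CPM in Dgcr8 KO (log2 change 2.41, SE 0.385, adjusted p = 5.03e-06). Mir302d rose by 2.29 and Mir367 by 4.02 on the log2 scale, and their libraries did not overlap. Mir302b, at 1.69, 3.96 and 3.37 CPM in wild-type and 6.37, 4.44 and 5.47 CPM in Dgcr8 KO, had an adjusted p of 0.0130 but missed the fold limit (log2 change 0.94). Read counts over the miR-302 hairpins lay between 0 and 56 per library, so these values are less precise than those of the miR-290 cluster.

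**Figure D1:**
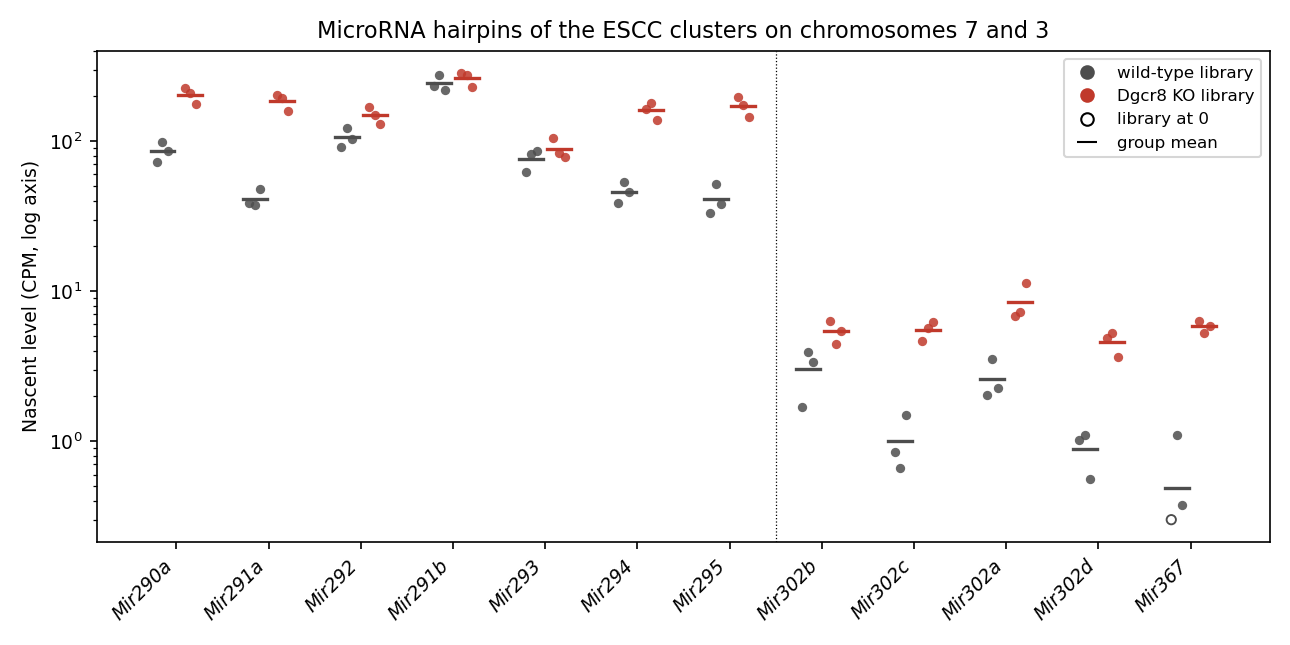
Nascent level over each hairpin of the miR-290 and miR-302 clusters (CPM, log axis), with 1 point per library and wild-type beside Dgcr8 KO. An open circle at the bottom marks a level of 0. Dgcr8 KO points lie above all wild-type points for Mir291a, Mir294 and Mir295, whereas Mir291b and Mir293 overlap.

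Total counts ranged from 4593914 to 6005526 in wild-type and from 4775267 to 4998675 in Dgcr8 KO libraries. Spearman correlations across genes were 0.988 to 0.991 within groups and 0.928 to 0.933 between them. Genotypes were apart on the first principal component, which took up 82.4% of the variance. No pair of replicates agreed within sampling noise (lowest chi-square per degree of freedom 1.83). Dgcr8 (ENSMUSG00000022718.11) lies on the minus strand of mm10 chromosome 16 from 18253948 to 18289249. Its nascent RNA was at 115, 124 and 113 CPM in wild-type and 75.6, 81.8 and 92.3 CPM in Dgcr8 KO (log2 change -0.50, SE 0.0856, adjusted p = 1.53e-05). The groups did not overlap, yet the difference was below the fold limit. Counts over the whole gene do not by themselves test for the loss of part of it.

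Marker levels were those of ESCs. The 8 ESC markers (Pou5f1, Sox2, Nanog, Zfp42, Esrrb, Sall4, Dppa5a and Utf1) were all tested, and they summed to 4721 to 4900 CPM in wild-type and 5539 to 6019 CPM in Dgcr8 KO. Fibroblast feeder markers summed to 32.0 to 36.2 CPM in wild-type and 28.5 to 31.1 CPM in Dgcr8 KO, with Col1a2, Dcn, Lum and Postn at 0 in all 6 libraries. Primitive endoderm markers summed to 286 to 309 CPM and 250 to 267 CPM. Of their 5 tested members 3 were called lower and 1 was higher at an adjusted p under 0.05. The median log2 change was -1.06 and the highest 0.53. Members below the filter also went either way: Dab2 had 39 reads in wild-type and 2 in Dgcr8 KO, and Pdgfra 32 and 56. Trophoblast markers summed to 292.4 to 316 CPM and 330 to 383 CPM, with Tpbpa and Prl3d1 at 0. The part of these differences in the results below was not tested.

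Loss of Dgcr8 was accompanied by a broad change of nascent RNA. Of 13654 genes, 1287 rose and 633 fell, so 67.0% of the 1920 calls were rises. The quasi-likelihood test of edgeR called 1917 genes, and 1888 genes were called by both. For 1911 of the 1920 calls the 3 Dgcr8 KO libraries lay wholly outside the range of the 3 wild-type libraries. Such separation was common among the genes tested, at 8066 genes or 59.1%. The genes that rose had a median of 5.30 CPM in wild-type and 18.8 CPM in Dgcr8 KO, and those that fell went from a median of 11.3 to 3.64 CPM. The low wild-type level of the rises is fixed in part by the filter, since 371 of the 1287 were below 3 CPM in each wild-type library. The median gene tested was at 26.6 CPM in wild-type and 27.9 CPM in Dgcr8 KO. Changes beyond 4-fold were found in 408 genes that rose and 156 that fell. The median log2 change of all genes was -0.0038, with a 5th percentile of -0.97 and a 95th percentile of 1.51. CPM are shares of captured RNA, so a change in the total output of nascent RNA per cell would not be seen.

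**Figure D2:**
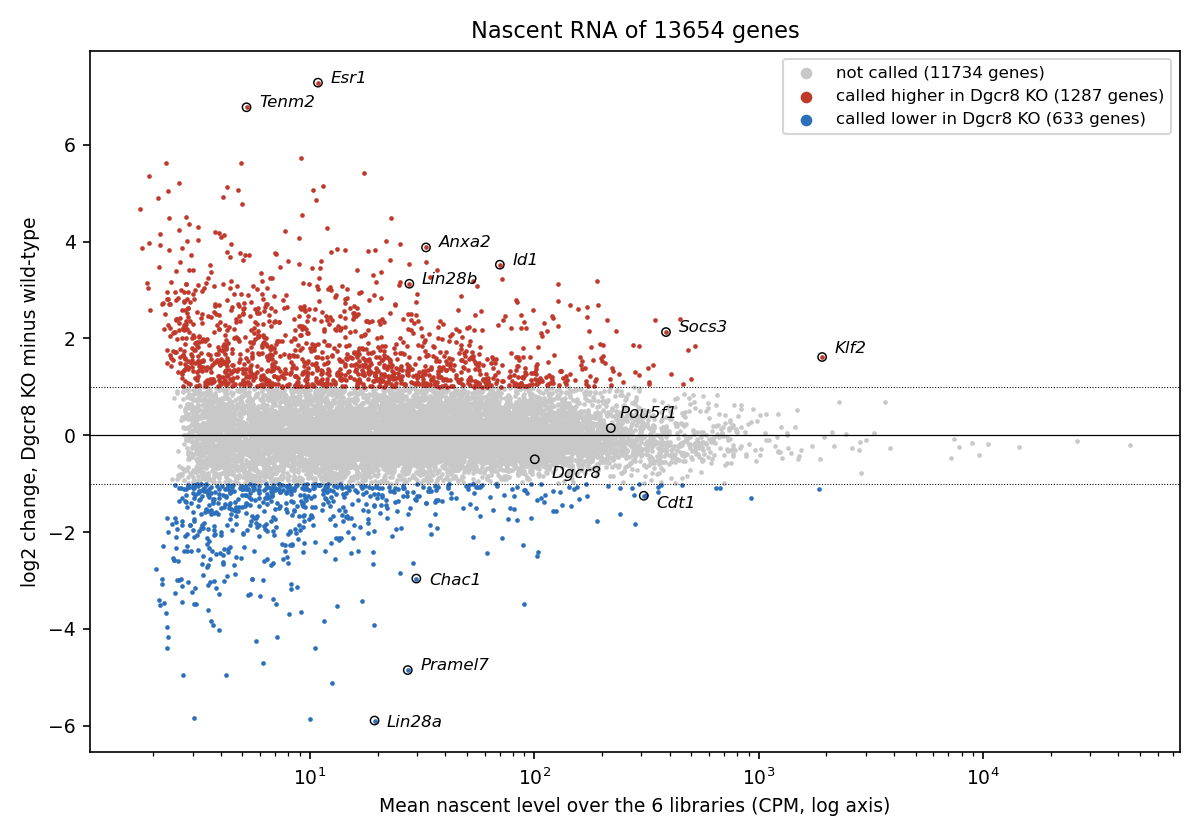
Log2 change of nascent RNA (Dgcr8 KO minus wild-type) of each of the 13654 genes tested against its mean level over the 6 libraries in CPM (log axis). Red points are the 1287 genes called higher, blue points the 633 called lower, dotted lines the fold limit, and circles mark genes named in the text.

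The largest rises were genes that were nearly silent in wild-type cells, which the filter and the ranking by log2 change favour. Esr1, which encodes the estrogen receptor alpha, a ligand-activated transcription factor (mm10 chromosome 10), had 1 read in the wild-type libraries together and was at 26.1, 19.6 and 19.2 CPM in Dgcr8 KO. The ratio was 341, with a counting interval of 60.7 to 13500 (adjusted p = 6.09e-14). Where a group held 3 reads or fewer in each library, the ratio of summed reads, scaled to library size, is given with its exact 95% counting interval, which covers counting error only, since reads were not collapsed by molecular identifiers. Tenm2, a teneurin of neuronal cell adhesion, had no read in wild-type and reached 11.7, 10.5 and 9.11 CPM, at least 18.1-fold higher when a floor of 3 counts per library is set for wild-type. Anxa3, an annexin that binds membrane phospholipids with calcium, was at 0.169, 0.4396 and 0.187 CPM in wild-type and 16.8, 17.6 and 19.4 CPM in Dgcr8 KO. Ccnd2, which encodes the G1 cyclin D2, was at 0.169, 0 and 0.187 CPM in wild-type and 8.29, 11.1 and 9.92 CPM in Dgcr8 KO. Their ratios were 70.8, with a counting interval of 27.3 to 262 for Anxa3, and 77.3, with a counting interval of 21 to 645 for Ccnd2. No wild-type library held more than 0.4396 CPM of any of these 4 genes.

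Pdzrn4, a PDZ and RING-finger protein gene on chromosome 15, was the largest rise with a measurable wild-type level, at 0.678, 0.659 and 0.749 CPM in wild-type and 39.9, 28.3 and 34.02 CPM in Dgcr8 KO (log2 change 5.42, SE 0.404, adjusted p = 3.50e-12). Cyp1b1, a cytochrome P450, was at 0.678, 1.099 and 0.375 CPM in wild-type and 18.3, 21.4 and 13.6 CPM in Dgcr8 KO (log2 change 4.56, SE 0.431, adjusted p = 4.75e-10). Each of the 12 largest rises was below 3 CPM in every wild-type library and passed the filter only through Dgcr8 KO. Gbp4 and Irgm1, GTPases that interferon induces, were at 0.847, 0.4396 and 0.375 and at 0.339, 1.32 and 0.562 CPM in wild-type, against 21.7, 23.8 and 21.3 and 21.7, 19.2 and 20.9 CPM in Dgcr8 KO. Zbp1, a sensor of Z-form nucleic acids, was at 0.508, 0 and 0.562 CPM in wild-type and 7.44, 10.7 and 10.7 CPM in Dgcr8 KO, a ratio of 25.4, with a counting interval of 11.4 to 70.4. The others were Fras1, a basement membrane protein gene (ratio 43.6, with a counting interval of 14.6 to 214), Lgals9, a galectin (ratio 39.7, with a counting interval of 19.9 to 92.9), and Rasgrf2, an exchange factor for Ras (ratio 31.4, with a counting interval of 11.9 to 117). In all 12 the groups were far apart, as the choice of the largest changes requires.

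The largest fall was that of Lin28a, which encodes an RNA-binding protein that blocks the maturation of let-7 microRNAs (mm10 chromosome 4). It was at 36.1, 35.2 and 43.5 CPM in wild-type and 0.637, 0.404 and 0.608 CPM in Dgcr8 KO, a ratio of wild-type to Dgcr8 KO of 69.9, with a counting interval of 35.3 to 163 (adjusted p = 1.41e-12). Prmt8, an arginine methyltransferase gene on chromosome 6, was at 19.5, 22.4 and 17.2 CPM in wild-type and 0, 0.606 and 0.405 CPM in Dgcr8 KO, 57.1-fold lower, with a counting interval of 24.2 to 177. Tmem56, a transmembrane protein gene, was at 4.41, 7.47 and 6.37 CPM in wild-type and had no read in Dgcr8 KO, at least 9.86-fold lower. Both Lin28a and Prmt8 were thus clearly transcribed in wild-type and close to absent in Dgcr8 KO. Pramel7, a member of a family expressed in early embryos, was at 52.7, 50.1 and 55.5 CPM in wild-type and 1.91, 1.21 and 2.23 CPM in Dgcr8 KO (log2 change -4.85, SE 0.291, adjusted p = 3.26e-14). Efs, an adaptor of Src-family signalling, was at 35.6, 34.9 and 37.8 CPM in wild-type and 1.91, 1.82 and 3.44 CPM in Dgcr8 KO (log2 change -3.92, SE 0.2704, adjusted p = 6.56e-13). Fgf10, a fibroblast growth factor gene, was at 23.1, 21.1 and 20.8 CPM in wild-type and 1.06, 2.63 and 1.01 CPM in Dgcr8 KO (log2 change -3.83, SE 0.329, adjusted p = 6.42e-11). Each of these 3 kept a small signal in all Dgcr8 KO libraries. The other falls were those of Pvrig (-4.72 on the log2 scale), Cbln1 (-4.39), Fmr1nb (-4.17), Pla2g1b (-4.03) and Ppp1r3c (-3.91). Gpx3, a glutathione peroxidase gene, was at 7.46, 6.59 and 6.37 CPM in wild-type and 0.212, 0.606 and 0.405 CPM in Dgcr8 KO, 16.6-fold lower, with a counting interval of 7.400 to 46.3. All of these largest falls except Efs were below 3 CPM in every Dgcr8 KO library and passed the filter only through wild-type. Their low Dgcr8 KO level is therefore fixed in part by the filter. Efs reached 3 CPM in Dgcr8 KO replicate 3 only.

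**Figure D3:**
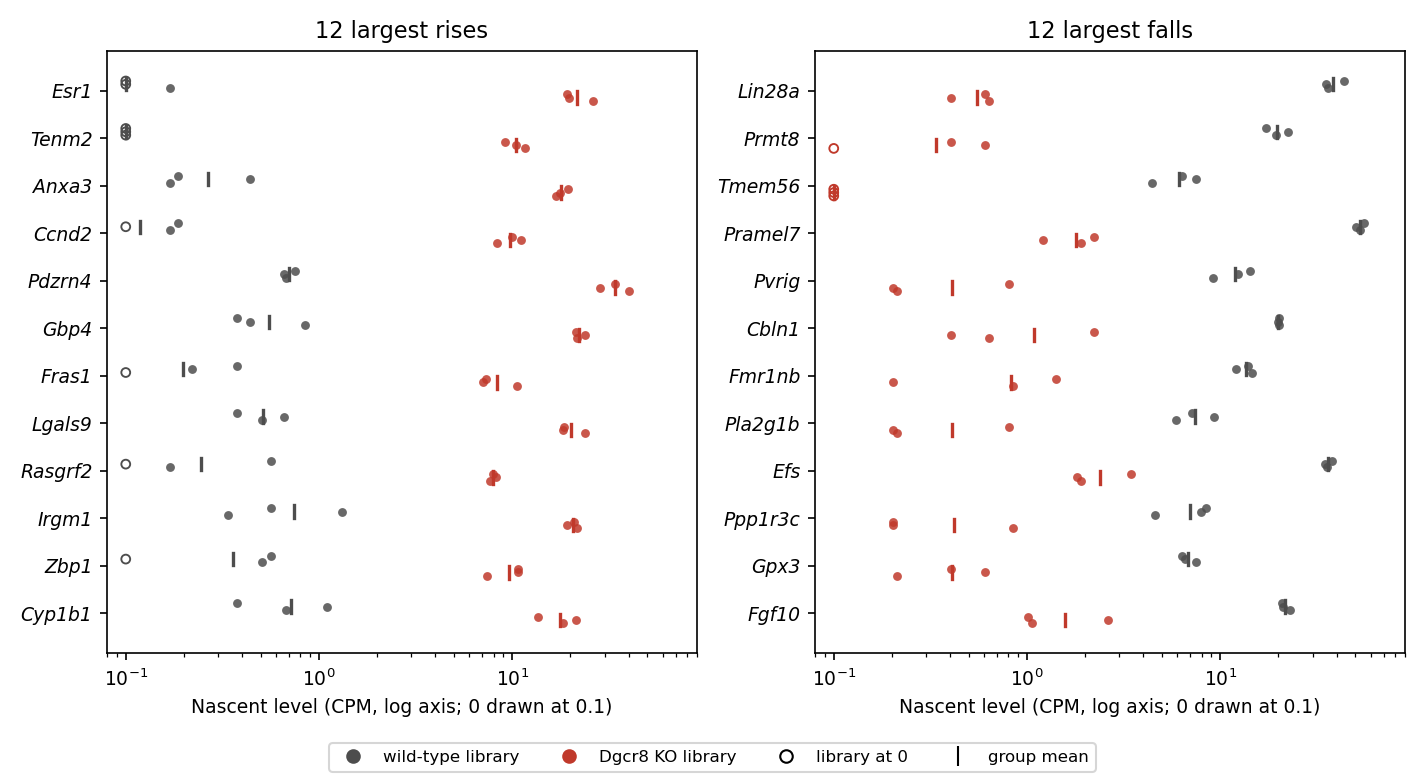
Nascent level (CPM, log axis) in each library of the 12 genes with the largest rises and the 12 with the largest falls, with wild-type and Dgcr8 KO points apart and lines at the group means. A value of 0 is drawn at 0.1, and a mean under 0.1 is drawn there too. The groups are separated in all 24 genes.

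Promoters of the largest changes are printed because transcription starts there. Each sequence is from RefSeq on GRCm38.p6, read along the strand of the gene from 250 bases before to 50 bases after the annotated start, with capitals at motifs. The 4 motifs were searched on both strands. Of the 32851 promoters in the table, 13.6% hold a TATA box (TATAAA), 37.4% a CCAAT box (CCAAT), 35.7% a GC box (GGGCGG) and 7.15% an E-box (CACGTG). A match is a description and not a site of binding. Positions are counted from 1 at the first base printed.
Esr1, chr10:4611739-4612038, plus strand: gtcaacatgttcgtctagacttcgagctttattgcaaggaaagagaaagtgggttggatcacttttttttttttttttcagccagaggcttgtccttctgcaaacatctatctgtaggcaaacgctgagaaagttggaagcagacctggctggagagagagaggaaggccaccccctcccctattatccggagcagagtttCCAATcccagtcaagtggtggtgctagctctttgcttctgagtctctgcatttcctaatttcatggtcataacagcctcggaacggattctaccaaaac
Pdzrn4, chr15:92396560-92396859, plus strand: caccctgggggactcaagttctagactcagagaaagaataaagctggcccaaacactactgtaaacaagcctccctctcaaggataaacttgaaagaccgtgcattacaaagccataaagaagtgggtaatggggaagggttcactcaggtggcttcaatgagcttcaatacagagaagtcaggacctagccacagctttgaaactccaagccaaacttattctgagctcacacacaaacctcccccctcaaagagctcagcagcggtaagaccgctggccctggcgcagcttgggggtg
Lin28a, chr4:134018767-134019066, minus strand: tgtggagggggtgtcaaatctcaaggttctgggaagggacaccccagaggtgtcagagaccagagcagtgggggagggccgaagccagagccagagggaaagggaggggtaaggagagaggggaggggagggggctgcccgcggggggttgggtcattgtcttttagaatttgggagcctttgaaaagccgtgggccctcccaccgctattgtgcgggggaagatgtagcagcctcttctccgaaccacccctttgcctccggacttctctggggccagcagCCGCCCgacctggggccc
Prmt8, chr6:127769110-127769409, minus strand: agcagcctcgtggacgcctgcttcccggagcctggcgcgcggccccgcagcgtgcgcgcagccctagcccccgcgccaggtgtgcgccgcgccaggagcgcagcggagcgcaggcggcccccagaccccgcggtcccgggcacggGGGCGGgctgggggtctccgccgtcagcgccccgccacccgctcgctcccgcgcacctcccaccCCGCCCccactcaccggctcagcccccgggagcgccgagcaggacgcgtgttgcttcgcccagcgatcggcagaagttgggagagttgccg
The Esr1 promoter holds CCAAT at position 202, and the Pdzrn4 promoter holds none of the 4 motifs. Lin28a has a GC box at position 283, and Prmt8 has GC boxes at positions 146 and 210, each within a stretch rich in G and C.

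Lin28a and its paralogue Lin28b moved in opposite directions. Lin28b, at 3.73, 8.35 and 5.99 CPM in wild-type, was at 42.7, 53.3 and 52.2 CPM in Dgcr8 KO (log2 change 3.13, SE 0.214, adjusted p = 5.22e-13). They were the 2 calls among 12 tested genes of the LIN28 and let-7 axis, and Lin28a reached 3 CPM in no Dgcr8 KO library. Among 14 genes of microRNA processing and function, limma called none, and neither edgeR nor DESeq2 called any, although 13 had an unadjusted p under 0.05. Without wild-type replicate 2, limma called 1 of the 14 higher. Ago2, the slicing Argonaute, was at 483, 503 and 436 CPM in wild-type and 434, 437 and 404 CPM in Dgcr8 KO, and these overlap (adjusted p = 0.0611). Ddx6, a helicase that represses microRNA targets, was at 327, 313 and 316 CPM in wild-type and 349, 360 and 363 CPM in Dgcr8 KO (log2 change 0.16, adjusted p = 0.0375). Of the 14, 9 were higher and 3 lower at an adjusted p under 0.05, against 28.0% and 25.4% of all genes tested. Their median log2 change was 0.26 and the highest 0.96. With all 6 libraries the machinery apart from LIN28 thus stayed within the fold limit, although most of its members differed.

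The core of the pluripotency network was little changed in nascent RNA. Of 16 general pluripotency factors limma called none, as did edgeR and DESeq2, and the median log2 change was 0.16. An unadjusted p under 0.05 was found in 10 of them, against at least 53.4% of all genes tested. Sox2 was at 1196, 1227 and 1220 CPM in wild-type and 1862, 1755 and 1645 CPM in Dgcr8 KO, a small difference with no overlap (log2 change 0.53, SE 0.0655, adjusted p = 7.95e-08). Nanog was at 1383, 1292 and 1393 CPM in wild-type and 1573, 1588 and 1434 CPM in Dgcr8 KO (log2 change 0.18, SE 0.0661, adjusted p = 0.0267). Pou5f1 was at 208 ± 10.2 CPM in wild-type and 230 ± 11.5 CPM in Dgcr8 KO (SD, n = 3), with an adjusted p of 0.0869.

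Of 17 naive-state factors, 2 rose and 2 fell, or 1 fell under the stricter filter. Klf2, a naive-state transcription factor on chromosome 8, rose from 1016, 811 and 1008 CPM to 3017, 2723 and 2910 CPM (log2 change 1.62, SE 0.0758, adjusted p = 1.28e-16). Socs3, the feedback inhibitor of LIF signalling, was at 139, 140 and 150 CPM in wild-type and 723, 578 and 586 CPM in Dgcr8 KO (log2 change 2.13, SE 0.0807, adjusted p = 1.18e-18). Tcl1, a cofactor of the kinase Akt, fell from 47.3, 36.05 and 44.6 CPM to 18.7, 15.6 and 16.4 CPM (log2 change -1.34, SE 0.1404, adjusted p = 3.60e-09). Both rises took place in genes already well transcribed in wild-type. Dppa3, a protector of maternal methylation marks, was at 5.76, 4.62 and 6.18 CPM in wild-type and 1.06, 0.606 and 0.203 CPM in Dgcr8 KO (log2 change -3.16, SE 0.462, adjusted p = 1.33e-06). Dppa3 was thus below 3 CPM in each Dgcr8 KO library and passed the filter only through wild-type. The list held members that moved either way, and its median change was 0.04.

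Formative and primed markers, genes that come up as ESCs leave the naive state, had 5 of 14 tested members called higher and 1 lower, with a median of 0.78. Foxd3, a forkhead factor of the early epiblast, was at 160, 142 and 118 CPM in wild-type and 370, 331 and 310 CPM in Dgcr8 KO (log2 change 1.27, SE 0.0882, adjusted p = 7.08e-13). Lef1, a WNT-responsive transcription factor, was at 2.54, 2.64 and 2.25 CPM in wild-type and 12.5, 9.09 and 9.32 CPM in Dgcr8 KO (log2 change 2.00, SE 0.279, adjusted p = 5.89e-07). Sox11 was at 12.9, 16.5 and 14.4 CPM in wild-type and 33.99, 35.1 and 29.97 CPM in Dgcr8 KO (log2 change 1.19, SE 0.142, adjusted p = 4.15e-08). In these 3 each Dgcr8 KO library was above the highest wild-type library. Pou3f1, encoding the POU factor OCT6, went the other way, at 14.1, 11.9 and 12.9 CPM in wild-type and 2.34, 1.82 and 3.24 CPM in Dgcr8 KO (log2 change -2.39, SE 0.279, adjusted p = 2.83e-08). With upper-quartile factors the rises numbered 3. The stricter filter kept 4 rises and tested neither Pou3f1 nor Lef1, which was below 3 CPM in each wild-type library. Of 9 tested germ-layer regulators 2 rose, or 1 of 7 under the stricter filter, and 1 fell without Dgcr8 KO replicate 3. Evx1, a homeobox gene of the primitive streak, was at 0.678, 0.4396 and 0.375 CPM in wild-type and 8.29, 7.67 and 8.101 CPM in Dgcr8 KO (log2 change 3.79, SE 0.419, adjusted p = 9.67e-09), and Msx2 was at 13.9, 15.2 and 16.9 CPM in wild-type and 43.1, 35.5 and 38.5 CPM in Dgcr8 KO (log2 change 1.35, SE 0.138, adjusted p = 2.18e-09).

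Genes of the 2-cell-like state, a rare condition in ESC cultures that resembles the 2-cell embryo, were hardly detected in wild-type. Of 13 listed genes 9 were tested, and 8 of these reached 3 CPM in no wild-type library, so they could only enter by being high in Dgcr8 KO and their count is no support for a change. Without the filter, limma called 11 of 11 higher, against 2281 of all 29038 genes. Zscan4f was at 0.339, 1.54 and 0.375 CPM in wild-type and 7.44, 4.24 and 4.46 CPM in Dgcr8 KO (log2 change 2.99, SE 0.475, adjusted p = 4.78e-06). Tcstv3 was at 0.678, 0.879 and 0 CPM in wild-type and 4.89, 6.06 and 5.27 CPM in Dgcr8 KO (log2 change 3.73, SE 0.533, adjusted p = 9.01e-07), and Tcstv1 was at 0.169, 0.879 and 1.12 CPM in wild-type and 6.799, 6.06 and 4.05 CPM in Dgcr8 KO (log2 change 3.10, SE 0.483, adjusted p = 3.62e-06). Duxf3, a copy of the Dux factor that switches on the state, was at 0.508, 0.659 and 0 CPM in wild-type and 5.099, 4.24 and 5.67 CPM in Dgcr8 KO, a ratio of 13.2, with a counting interval of 5.76 to 37. Levels stayed under 10 CPM in every Dgcr8 KO library for these 4 genes. Zscan4, Tcstv and Dux genes have near-identical copies, so reads mapped uniquely under-count them and values of single copies are uncertain.

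Among 10 tested germline genome-defence genes, those that keep transposons silent or serve meiosis, 6 fell and 2 rose, and the median was -1.34. Without wild-type replicate 2 the rises numbered 1. Tex19.1, which guards against retrotransposons in germ cells and placenta, fell from 271, 310 and 300 CPM to 97.3, 89.5 and 71.3 CPM (log2 change -1.78, SE 0.0906, adjusted p = 8.31e-16). Dpep3, a dipeptidase of testis, was at 5.59, 5.93 and 6.18 CPM in wild-type and 1.49, 1.41 and 0.608 CPM in Dgcr8 KO (log2 change -2.33, SE 0.374, adjusted p = 5.83e-06). Taf9b, a subunit of transcription initiation complexes, was at 6.102, 5.93 and 5.81 CPM in wild-type and 1.700, 1.82 and 1.01 CPM in Dgcr8 KO (log2 change -1.95, SE 0.339, adjusted p = 1.78e-05). In each of these 3 the groups were separate. Of the 10 genes, 3 reached 3 CPM in no Dgcr8 KO library, and under the stricter filter 2 of 6 fell and 2 rose.

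**Figure D4:**
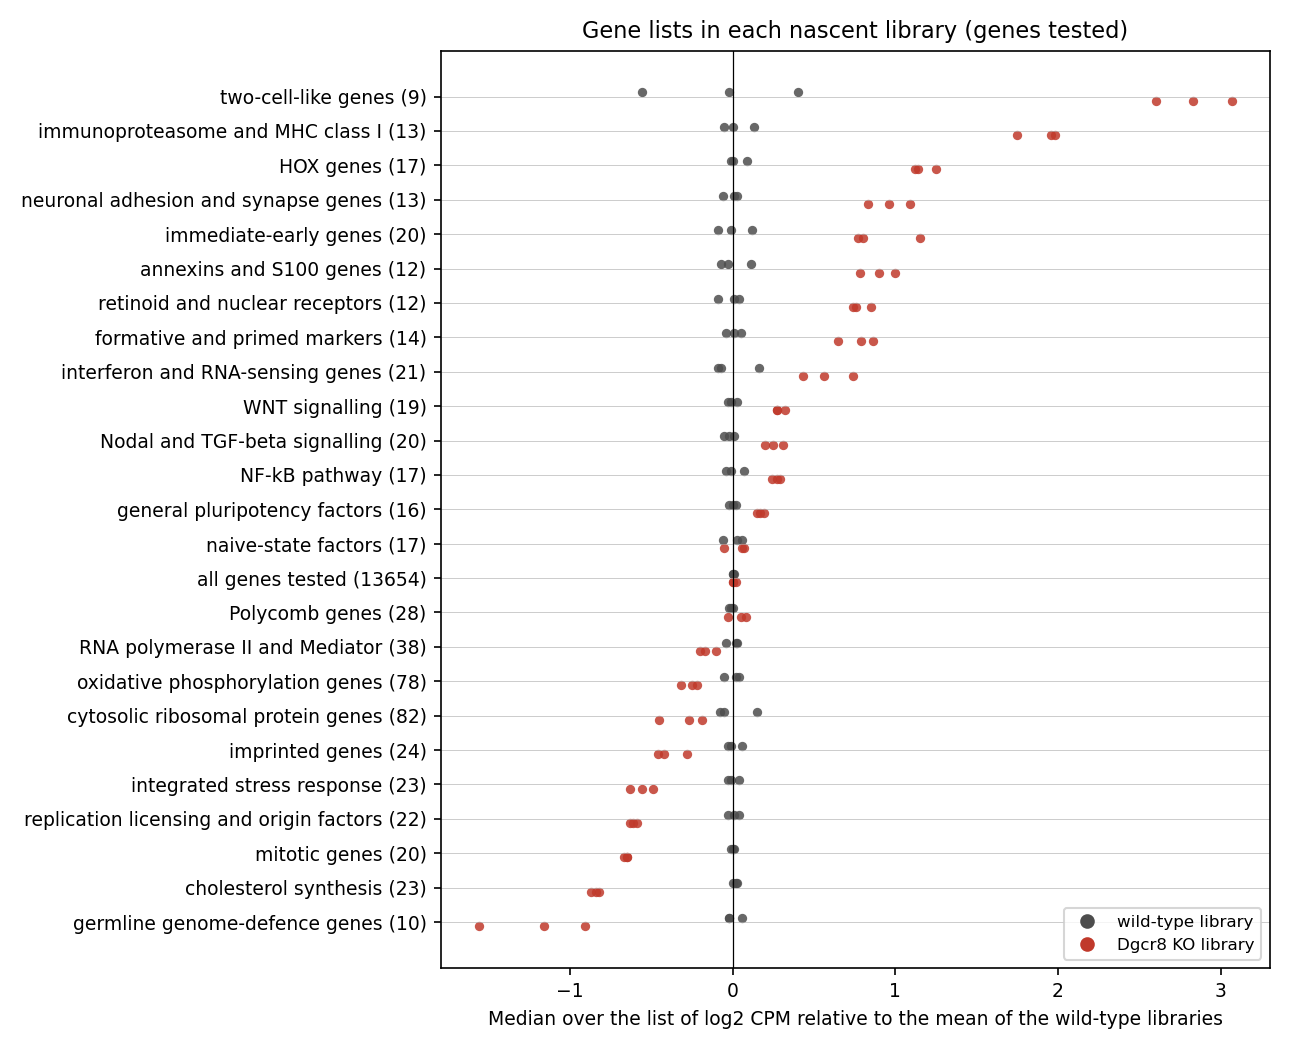
Median over each gene list of log2 CPM relative to the mean of the wild-type libraries, with 1 point per library and the number of genes tested in brackets. Dgcr8 KO points lie near 2 for immunoproteasome and MHC class I genes, near -0.84 for cholesterol synthesis and at 0 for all genes tested.

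Signalling genes were grouped by pathway, and several of these lists had a share of calls near the background. Immediate-early genes, which growth factors and stress switch on within minutes, had 9 of 20 tested members called higher and a median of 0.92, and 1 was called lower without Dgcr8 KO replicate 2. The 3 Dgcr8 KO libraries had list medians of 1.15, 0.80 and 0.77. Junb, a subunit of the AP-1 transcription factor, was at 40.5, 29.01 and 39.3 CPM in wild-type and 252, 168 and 194 CPM in Dgcr8 KO (log2 change 2.47, SE 0.1297, adjusted p = 1.60e-15). Jun was at 37.8, 33.8 and 37.8 CPM in wild-type and 220, 158 and 174 CPM in Dgcr8 KO (log2 change 2.31, SE 0.112, adjusted p = 3.03e-16), and Jund was at 136, 119 and 125 CPM in wild-type and 519, 435 and 427 CPM in Dgcr8 KO (log2 change 1.85, SE 0.0807, adjusted p = 2.24e-17). Replicate 1 of Dgcr8 KO was the highest in all 3 of these genes, and the other two libraries also lay above every wild-type library. Fosl2 was at 1.86, 1.98 and 4.12 CPM in wild-type and 10.2, 11.3 and 7.898 CPM in Dgcr8 KO (log2 change 1.92, SE 0.3003, adjusted p = 3.70e-06). In the wider AP-1, ATF and CREB family, 7 of 22 rose, among them Creb3 at 16.8, 17.6 and 22.1 CPM in wild-type and 79.7, 80.4 and 69.1 CPM in Dgcr8 KO (log2 change 2.02, SE 0.126, adjusted p = 6.99e-14).

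The Id genes, inhibitors of helix-loop-helix factors and classical targets of BMP, made up the 3 rises among 12 tested BMP pathway genes. Id1 was at 10.3, 8.79 and 14.6 CPM in wild-type and 144, 116 and 127 CPM in Dgcr8 KO (log2 change 3.52, SE 0.159, adjusted p = 5.42e-17). Id3 was at 78.8, 87.9 and 85.8 CPM in wild-type and 423, 331 and 378 CPM in Dgcr8 KO (log2 change 2.16, SE 0.0864, adjusted p = 3.57e-18), and Id2 was at 51.9, 60.2 and 51.1 CPM in wild-type and 131, 136 and 104 CPM in Dgcr8 KO (log2 change 1.18, SE 0.101, adjusted p = 5.88e-11). Id1 had the largest log2 change of the 3 and Id2 the smallest, and their groups were separate. In the Nodal and TGF-beta list, 2 of 20 rose (10%), near the background of 9.43%. Lefty1, a secreted Nodal inhibitor, was at 48.5, 51.2 and 60.5 CPM in wild-type and 334, 260 and 278 CPM in Dgcr8 KO (log2 change 2.44, SE 0.0988, adjusted p = 4.19e-18).

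Of 19 tested WNT genes limma called 5 higher, and 1 was called lower without wild-type replicate 1 or Dgcr8 KO replicate 2. Rnf43 and Lef1 reached 3 CPM in no wild-type library, and under the stricter filter 3 of 16 rose, Sp5, Notum and Tcf7l2. Sp5, a direct target of beta-catenin, was at 9.15, 9.45 and 10.9 CPM in wild-type and 51.6, 44.02 and 56.5 CPM in Dgcr8 KO (log2 change 2.35, SE 0.1596, adjusted p = 4.45e-13). Notum, a secreted enzyme that inactivates WNT ligands, was at 24.2, 18.9 and 20.8 CPM in wild-type and 87.1, 81.99 and 77.8 CPM in Dgcr8 KO (log2 change 1.94, SE 0.116, adjusted p = 3.18e-14), and Rnf43, a ubiquitin ligase for WNT receptors, was at 1.19, 0.879 and 1.87 CPM in wild-type and 4.25, 5.25 and 4.46 CPM in Dgcr8 KO (log2 change 1.80, SE 0.363, adjusted p = 1.29e-04). The feedback inhibitors Nkd1 and Nkd2 were below the filter and went the other way. Nkd1 had 44 reads in wild-type and 11 in Dgcr8 KO, and Nkd2 had 49 and 8 (limma without the filter, adjusted p = 0.00313 and 0.00134). Without the filter 5 WNT genes were called higher and 4 lower of 29, against 2281 higher and 1409 lower of all 29038 genes. Both groups were grown with the GSK3 inhibitor. Spry4, a feedback inhibitor of receptor tyrosine kinases, was at 2.203, 1.32 and 2.06 CPM in wild-type and 40.6, 38.4 and 53.9 CPM in Dgcr8 KO (log2 change 4.50, SE 0.314, adjusted p = 8.70e-13) and was the 1 rise among 18 FGF and ERK genes. The 2 falls there were Fgfr2, an FGF receptor, at 8.81, 3.52 and 5.99 CPM in wild-type and 1.27, 0.404 and 1.42 CPM in Dgcr8 KO (log2 change -2.57, SE 0.459, adjusted p = 2.63e-05), and Dusp4, a phosphatase of ERK, at 5.25, 8.57 and 5.43 CPM in wild-type and 1.27, 2.83 and 3.04 CPM in Dgcr8 KO (log2 change -1.41, SE 0.335, adjusted p = 7.82e-04). The 3 calls are 16.7% of the list, near the background of 14.1%, and none of the 3 genes was tested under the stricter filter. Both groups received the MEK inhibitor.

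In the Hippo list, 2 rose and 2 fell of 18 tested. Rises numbered 1 without wild-type replicate 3 or Dgcr8 KO replicate 1, and falls numbered 1 without wild-type replicate 3 or Dgcr8 KO replicate 3. Nf2, an upstream activator of the pathway, was at 73.1, 74.1 and 71.2 CPM in wild-type and 168, 169 and 162 CPM in Dgcr8 KO (log2 change 1.19, SE 0.0783, adjusted p = 2.36e-13), and Amotl1, a partner of YAP, was at 70.3, 77.4 and 66.9 CPM in wild-type and 26.3, 24.4 and 24.1 CPM in Dgcr8 KO (log2 change -1.51, SE 0.111, adjusted p = 2.73e-12). Notch3, a Notch receptor, was the 1 call among 11 Notch genes, at 30.5, 26.2 and 36.3 CPM in wild-type and 9.14, 9.49 and 11.7 CPM in Dgcr8 KO (log2 change -1.61, SE 0.172, adjusted p = 5.48e-09). Notch genes called higher numbered 2 without wild-type replicate 3 and 1 without Dgcr8 KO replicate 2. Retinoid and other nuclear receptors had 4 of 12 called higher with a median of 0.76, with Esr1 first among them, or 2 of 9 under the stricter filter, Nr6a1 and Nr3c1. Without Dgcr8 KO replicate 1, 1 was called lower. Rarb, a retinoic acid receptor, was at 1.53, 4.18 and 1.87 CPM in wild-type and 8.92, 9.69 and 9.11 CPM in Dgcr8 KO (log2 change 2.02, SE 0.305, adjusted p = 2.17e-06), and Nr3c1, the glucocorticoid receptor, was at 34.1, 42.6 and 34.3 CPM in wild-type and 74.2, 80.8 and 89.1 CPM in Dgcr8 KO (log2 change 1.15, SE 0.105, adjusted p = 2.47e-10). Each of these had separate groups.

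Cell cycle genes were followed by phase. Of 19 tested genes of G1 progression 3 rose (15.8%, near the background of 14.1%), while 8 were higher and 7 lower at an adjusted p under 0.05, and the median was -0.14. Ccnd1, encoding cyclin D1, was at 84.6, 85.3 and 80.4 CPM in wild-type and 256, 263 and 212 CPM in Dgcr8 KO (log2 change 1.54, SE 0.0851, adjusted p = 5.21e-15), and its partner kinase Cdk6 was at 110, 110 and 89.5 CPM in wild-type and 301, 308 and 279 CPM in Dgcr8 KO (log2 change 1.53, SE 0.0817, adjusted p = 2.39e-15). Ccnd2, given above, was the third rise. Genes of replication licensing and origin firing were mostly lower. Of 22 tested, 4 fell, 19 were lower at an adjusted p under 0.05 with no limit on the fold change, and the median was -0.58. By that looser rule 53.4% of all genes differed, 28.0% higher and 25.4% lower. Cdt1, the licensing factor that loads the MCM helicase, fell from 456, 406 and 436 CPM to 196, 181 and 169 CPM (log2 change -1.25, SE 0.0737, adjusted p = 2.16e-14). Mcm5, a subunit of that helicase, was at 437, 414 and 472 CPM in wild-type and 185, 186 and 187 CPM in Dgcr8 KO (log2 change -1.24, SE 0.0708, adjusted p = 1.04e-14). Gins2, part of the active helicase, was at 58.8, 58.7 and 62.6 CPM in wild-type and 26.98, 27.1 and 20.05 CPM in Dgcr8 KO (log2 change -1.29, SE 0.119, adjusted p = 2.92e-10), and Cdc6, which loads MCM with CDT1, was at 206, 203 and 208 CPM in wild-type and 94.3, 98.8 and 92.1 CPM in Dgcr8 KO (log2 change -1.11, SE 0.0752, adjusted p = 4.16e-13). The 3 Dgcr8 KO libraries had list medians of -0.61, -0.59 and -0.63. Cdt1, Mcm5 and Gins2 lie on chromosome 8, whose genes as a whole were lower (below), and the part of that in these falls was not tested.

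Mitotic genes showed the same direction, with 2 of 20 called lower, 17 lower at an adjusted p under 0.05 and a median of -0.69. Ccnb1, the cyclin that drives entry into mitosis, was at 216, 233 and 194 CPM in wild-type and 80.9, 80.4 and 72.1 CPM in Dgcr8 KO (log2 change -1.46, SE 0.0848, adjusted p = 1.61e-14). Cenpa, the histone of centromeres, was at 128, 132 and 125 CPM in wild-type and 59.9, 54.9 and 53.5 CPM in Dgcr8 KO (log2 change -1.20, SE 0.0857, adjusted p = 1.47e-12). Most mitotic genes therefore fell short of the fold limit by themselves. In the E2F, MYB and MYC network, 3 rose and 1 fell of 21 tested, and 2 fell without Dgcr8 KO replicate 2. Myb, a proto-oncogene transcription factor, was at 6.44, 6.15 and 7.12 CPM in wild-type and 35.5, 34.5 and 35.4 CPM in Dgcr8 KO (log2 change 2.40, SE 0.174, adjusted p = 1.92e-12). Mycl, a MYC paralogue, was at 57.1, 59.3 and 57.7 CPM in wild-type and 15.3, 14.3 and 16 CPM in Dgcr8 KO (log2 change -1.92, SE 0.128, adjusted p = 3.11e-13), and Mxd4, an antagonist of MYC, was at 3.05, 3.74 and 2.62 CPM in wild-type and 7.86, 7.88 and 9.72 CPM in Dgcr8 KO (log2 change 1.43, SE 0.265, adjusted p = 4.09e-05).

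Among 23 tested p53 pathway genes 3 rose, and the median was -0.09. Pmaip1, encoding the pro-apoptotic protein NOXA, was at 109, 106 and 119 CPM in wild-type and 592, 594 and 542 CPM in Dgcr8 KO (log2 change 2.37, SE 0.0741, adjusted p = 2.79e-20). Perp, a membrane protein gene that p53 activates, was at 5.42, 5.49 and 6.56 CPM in wild-type and 24.4, 25.2 and 28.4 CPM in Dgcr8 KO (log2 change 2.14, SE 0.191, adjusted p = 1.36e-10). Of 22 apoptosis regulators 3 rose and 2 fell, or 1 fell without wild-type replicate 3 or Dgcr8 KO replicate 2. Both falls were below 3 CPM in each Dgcr8 KO library. Casp8, the caspase of death receptors, was at 2.71, 1.98 and 1.499 CPM in wild-type and 6.37, 7.27 and 4.66 CPM in Dgcr8 KO (log2 change 1.52, SE 0.324, adjusted p = 2.28e-04), Bok was at 17.3, 19.12 and 19.9 CPM in wild-type and 47.2, 44.8 and 43.9 CPM in Dgcr8 KO (log2 change 1.27, SE 0.122, adjusted p = 6.41e-10), and Birc3, an inhibitor of apoptosis, was at 9.15, 10.99 and 15.4 CPM in wild-type and 28.3, 26.7 and 26.1 CPM in Dgcr8 KO (log2 change 1.22, SE 0.165, adjusted p = 3.55e-07). Hrk, which is pro-apoptotic, went from 5.08, 4.396 and 3.56 CPM to 0.637, 0.202 and 0 CPM, 15.9-fold lower, with a counting interval of 5.95 to 60.2. Casp8 was below 3 CPM in each wild-type library and passed the filter only through Dgcr8 KO. Under the stricter filter 2 of 18 rose, Bok and Birc3, and 0 fell. Pro-apoptotic genes were thus found among both the rises and the falls with the main filter, whereas the stricter filter tested neither fall.

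Genes of antigen presentation were examined as a further list. Of 20 listed genes of the immunoproteasome and MHC class I, 13 were tested, 10 were called higher and the median was 1.92. Of the 13, 4 reached 3 CPM in no wild-type library and could enter only by being high in Dgcr8 KO, so the count is no support for a change of the list. Under the stricter filter 3 of 6 were called higher, Psme1, Tapbp and B2m. Erap1, which trims peptides for MHC class I, was at 2.71, 3.96 and 1.87 CPM in wild-type and 28.05, 31.1 and 29.6 CPM in Dgcr8 KO (log2 change 3.42, SE 0.255, adjusted p = 3.39e-12). Tap2, a subunit of the peptide transporter, was at 0.847, 0.4396 and 0.562 CPM in wild-type and 4.25, 7.67 and 6.89 CPM in Dgcr8 KO (log2 change 3.14, SE 0.443, adjusted p = 7.38e-07), and H2-M3, a class I molecule, was at 0.847, 1.54 and 1.499 CPM in wild-type and 7.65, 8.68 and 8.71 CPM in Dgcr8 KO (log2 change 2.67, SE 0.341, adjusted p = 1.31e-07). Psmb8, a catalytic subunit of the immunoproteasome, had no read in wild-type and was at 4.46, 4.85 and 4.46 CPM in Dgcr8 KO, at least 7.96-fold higher. These 4 genes were under 5 CPM in wild-type, whereas B2m, the light chain of MHC class I, was at 8.44 ± 0.775 CPM and rose to 21.4 ± 1.64 CPM (SD, n = 3). Tapbp, which loads peptides onto class I molecules, went from 19.9 ± 3.57 to 88.2 ± 5.59 CPM. H2 genes resemble each other, so unique mapping makes their single values uncertain.

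Interferon and RNA-sensing genes had 7 of 21 tested members called higher, 14 higher at an adjusted p under 0.05 and a median of 0.59. Irf2, a transcription factor that binds interferon-response elements, was at 2.203, 2.198 and 2.62 CPM in wild-type and 35.9, 36.8 and 29.2 CPM in Dgcr8 KO (log2 change 3.80, SE 0.266, adjusted p = 9.04e-13). Ifitm1, which restricts virus entry, was at 15.8, 14.5 and 18.5 CPM in wild-type and 104, 90.1 and 81.4 CPM in Dgcr8 KO (log2 change 2.48, SE 0.135, adjusted p = 3.45e-15). Ddx58, encoding the RNA sensor RIG-I, was at 13.7, 10.6 and 14.2 CPM in wild-type and 50.8, 56.1 and 57.7 CPM in Dgcr8 KO (log2 change 2.08, SE 0.142, adjusted p = 4.64e-13). All 3 had reads in every wild-type library, but Irf2 was below 3 CPM in each and passed the filter only through Dgcr8 KO. Under the stricter filter, which did not test Irf2, 6 of 20 rose. Of 12 IRF and STAT genes 4 rose, including Stat6 at 22.7, 26.2 and 24.9 CPM in wild-type and 52.7, 59.8 and 51.4 CPM in Dgcr8 KO (log2 change 1.16, SE 0.115, adjusted p = 1.20e-09).

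In the NF-kB pathway, 4 of 17 tested genes rose, and the median was 0.23. Nfkb2, a subunit of the non-canonical arm, was at 8.81, 7.69 and 12.6 CPM in wild-type and 30.2, 24.6 and 27.7 CPM in Dgcr8 KO (log2 change 1.51, SE 0.174, adjusted p = 2.21e-08). Nfkbia and Tnfaip3, feedback inhibitors that NF-kB itself induces, were at 170, 169 and 184 and 15.1, 16.05 and 15.7 CPM in wild-type, and at 437, 381 and 423 and 44.2, 32.5 and 39.9 CPM in Dgcr8 KO. Their log2 changes were 1.25 (adjusted p = 1.79e-14) and 1.30 (adjusted p = 8.38e-09). The groups were separate in all 3.

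Cholesterol synthesis was the metabolic pathway with most calls. Of 23 tested genes 9 fell and 1 rose, 21 were lower at an adjusted p under 0.05, and the median was -0.84. Msmo1, a sterol oxidase, fell from 184, 198 and 201 CPM to 70.3, 70.1 and 73.1 CPM (log2 change -1.45, SE 0.0799, adjusted p = 5.21e-15). Dhcr7, the last enzyme of the pathway, was at 48.3, 40.7 and 53.6 CPM in wild-type and 18.3, 16.4 and 19.2 CPM in Dgcr8 KO (log2 change -1.40, SE 0.136, adjusted p = 7.93e-10), and Fdps, which makes farnesyl diphosphate, was at 5.25, 3.96 and 5.99 CPM in wild-type and 1.700, 2.02 and 2.43 CPM in Dgcr8 KO (log2 change -1.27, SE 0.323, adjusted p = 0.00152). The exception was Ebp, a sterol isomerase, at 17.97, 20 and 19.3 CPM in wild-type and 48.02, 45.2 and 51.6 CPM in Dgcr8 KO (log2 change 1.34, SE 0.122, adjusted p = 2.23e-10). The list medians of the 3 Dgcr8 KO libraries were -0.82, -0.87 and -0.84, so the replicates were close. Fdps was below 3 CPM in each Dgcr8 KO library and passed the filter only through wild-type. Under the stricter filter 7 of 22 fell and 1 rose.

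Genes of the integrated stress response, which ATF4 induces when amino acids run short, fell in 6 of 23 cases, with 16 lower at an adjusted p under 0.05 and a median of -0.52. Chac1, which degrades glutathione, was at 45.4, 58.9 and 53.95 CPM in wild-type and 7.86, 7.88 and 4.66 CPM in Dgcr8 KO (log2 change -2.96, SE 0.202, adjusted p = 5.11e-13). Trib3, a pseudokinase, was at 49.5, 53.8 and 57.5 CPM in wild-type and 19.8, 22.8 and 20.5 CPM in Dgcr8 KO (log2 change -1.34, SE 0.121, adjusted p = 1.80e-10). Mthfd2, of mitochondrial folate metabolism, was at 97.3, 96.5 and 97.8 CPM in wild-type and 33.99, 28.7 and 37.1 CPM in Dgcr8 KO (log2 change -1.55, SE 0.103, adjusted p = 2.61e-13), and Phgdh, the first enzyme of serine synthesis, was at 10.5, 10.6 and 10.9 CPM in wild-type and 2.34, 5.45 and 4.25 CPM in Dgcr8 KO (log2 change -1.45, SE 0.261, adjusted p = 2.81e-05). In glycolysis, 3 of 22 fell and 1 rose, the rise being Pdk1, which limits entry of pyruvate into mitochondria, at 24.1, 30.99 and 25.5 CPM in wild-type and 72.9, 81.6 and 83.4 CPM in Dgcr8 KO (log2 change 1.58, SE 0.112, adjusted p = 1.05e-12). Among the falls was Eno2, an enolase, at 7.29, 6.37 and 7.49 CPM in wild-type and 2.97, 4.04 and 2.84 CPM in Dgcr8 KO (log2 change -1.10, SE 0.269, adjusted p = 0.00105). Lysosome genes were called as often higher as lower, 4 each of 28. Lamp2, a lysosomal membrane protein gene, was at 59.3, 52.5 and 49.6 CPM in wild-type and 122, 137 and 130 CPM in Dgcr8 KO (log2 change 1.27, SE 0.0899, adjusted p = 1.24e-12), and Ctsc, a cathepsin, was at 63.6, 63.1 and 64.1 CPM in wild-type and 27.8, 20.6 and 30.2 CPM in Dgcr8 KO (log2 change -1.30, SE 0.1198, adjusted p = 2.99e-10).

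**Figure D5:**
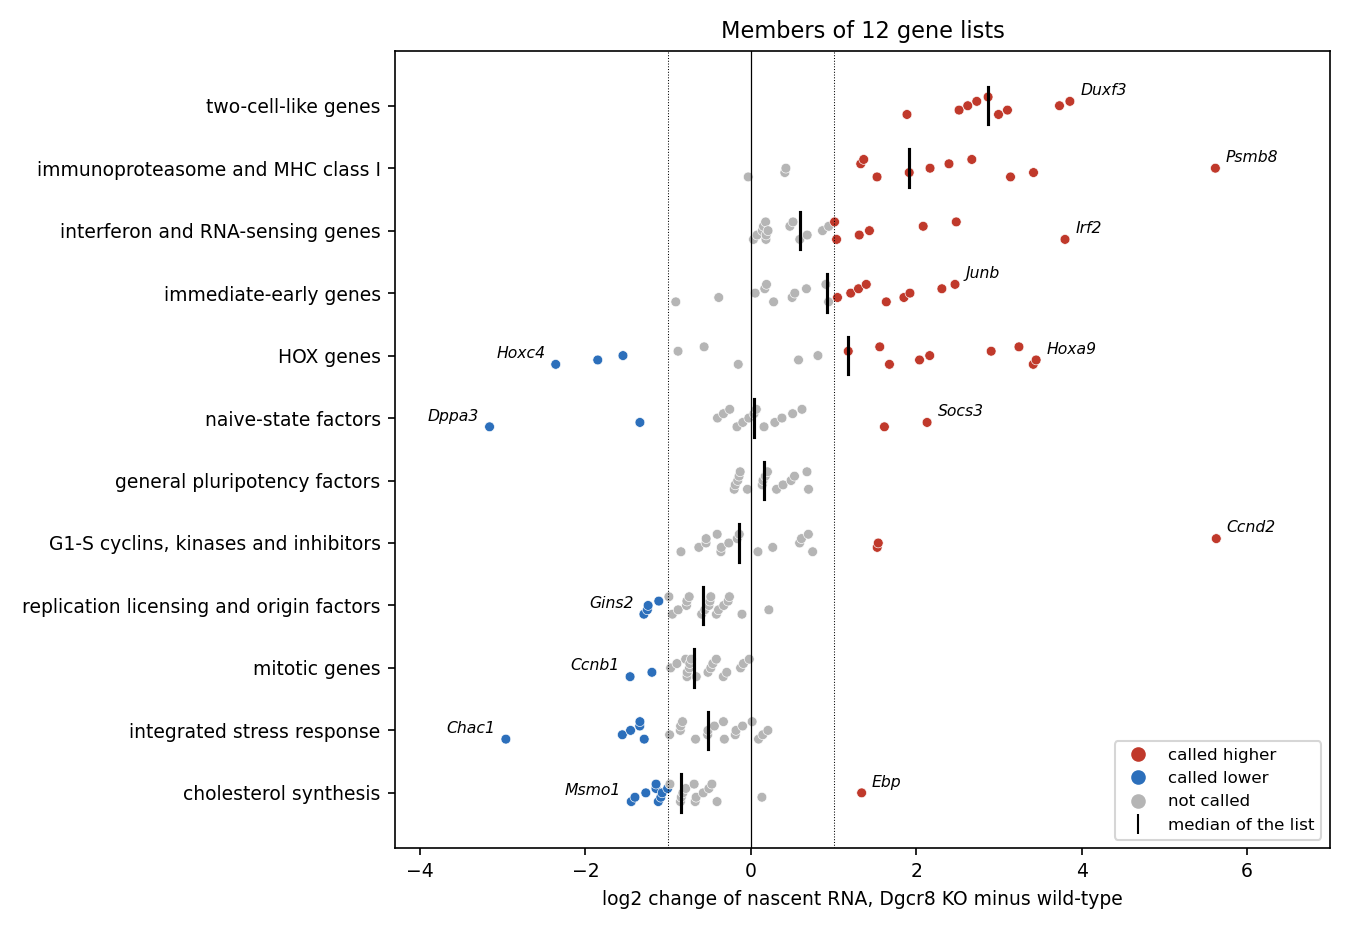
Log2 change of each tested member of 12 gene lists, coloured by whether it was called higher, called lower or not called, with a black bar at the list median and dotted lines at the fold limit. Members of cholesterol synthesis centre on -0.84 and those of the general pluripotency list stay within the limit. Hoxc4, at -2.36, was labelled after its value was seen, as the lowest of the HOX genes.

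Genes of cell shape and adhesion changed in mixed directions. Of 12 tested annexin and S100 genes 5 rose and 1 fell, and the median was 0.88. Of the 12, 3 reached 3 CPM in no wild-type library, and 2 of these, Anxa1 and Anxa3, are among the rises. Under the stricter filter 3 of 8 rose. Anxa2, which links membranes to actin, was at 3.56, 3.96 and 4.87 CPM in wild-type and 58, 70.7 and 56.3 CPM in Dgcr8 KO (log2 change 3.88, SE 0.221, adjusted p = 1.03e-14), and Anxa1 was at 0.678, 1.32 and 0.749 CPM in wild-type and 7.22, 9.69 and 6.68 CPM in Dgcr8 KO (log2 change 3.05, SE 0.386, adjusted p = 1.21e-07). Anxa6 was the fall, at 31.2, 30.6 and 36.9 CPM in wild-type and 5.74, 4.64 and 5.06 CPM in Dgcr8 KO (log2 change -2.66, SE 0.204, adjusted p = 6.64e-12). Annexin genes thus included both large rises and a large fall. Mesenchymal genes had 5 rises and 2 falls of 14, or 3 rises of 9 under the stricter filter, which tested neither fall. Vim, encoding the intermediate filament vimentin, was at 44.6, 36.9 and 51.1 CPM in wild-type and 212, 201 and 221 CPM in Dgcr8 KO (log2 change 2.26, SE 0.0966, adjusted p = 1.53e-17), and Snai1, a repressor of E-cadherin, was at 7.46, 7.47 and 10.3 CPM in wild-type and 45.04, 51.5 and 47.2 CPM in Dgcr8 KO (log2 change 2.51, SE 0.165, adjusted p = 2.50e-13). Axl, a receptor kinase, was at 3.05, 3.74 and 5.06 CPM in wild-type and 13.2, 12.5 and 13.8 CPM in Dgcr8 KO (log2 change 1.75, SE 0.237, adjusted p = 3.82e-07), whereas Ddr2, a collagen receptor, was at 14.4, 14.5 and 11.6 CPM in wild-type and 3.400, 2.22 and 2.63 CPM in Dgcr8 KO (log2 change -2.27, SE 0.269, adjusted p = 3.70e-08).

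Epithelial genes split evenly, with 2 rises and 2 falls of 17, or 1 rise of 14 under the stricter filter, which tested neither fall. Krt8, a keratin of simple epithelia, was at 2.54, 2.64 and 2.44 CPM in wild-type and 17.6, 18.6 and 12.6 CPM in Dgcr8 KO (log2 change 2.62, SE 0.277, adjusted p = 4.32e-09), and Pkp2, a desmosome protein gene, was at 13.2, 9.67 and 12.4 CPM in wild-type and 2.55, 5.05 and 4.46 CPM in Dgcr8 KO (log2 change -1.58, SE 0.259, adjusted p = 8.04e-06). SRF and actin genes also had 2 of each among 17, with 1 fall under the stricter filter. Tagln2 was at 43.9, 42.9 and 44.02 CPM in wild-type and 140, 136 and 126 CPM in Dgcr8 KO (log2 change 1.61, SE 0.0892, adjusted p = 5.22e-15), and Cnn2, a calponin, was at 51.9, 42.2 and 62.6 CPM in wild-type and 23.6, 18.2 and 20.05 CPM in Dgcr8 KO (log2 change -1.34, SE 0.143, adjusted p = 5.35e-09). Both lists thus held genes that moved against each other. In basement membrane and matrix genes 1 of 19 rose and 3 fell. Lama5 was at 175, 184 and 183 CPM in wild-type and 533, 507 and 437 CPM in Dgcr8 KO (log2 change 1.44, SE 0.0754, adjusted p = 1.48e-15), and Lama1, the laminin chain of the early embryo, was at 55.1, 57.1 and 56.01 CPM in wild-type and 21.5, 19.99 and 23.9 CPM in Dgcr8 KO (log2 change -1.36, SE 0.117, adjusted p = 6.02e-11). Collagen genes had 5 falls among 9 tested, 3 of 6 under the stricter filter, including Col4a1 at 18.8, 23.7 and 26.8 CPM in wild-type and 9.56, 7.88 and 4.25 CPM in Dgcr8 KO (log2 change -1.72, SE 0.225, adjusted p = 2.04e-07) and Col9a2 at 25.1, 32.5 and 27.5 CPM in wild-type and 10.6, 9.09 and 11.1 CPM in Dgcr8 KO (log2 change -1.44, SE 0.166, adjusted p = 2.23e-08). Lama1 and Col4a1 are also among the 3 primitive endoderm markers called lower. The summed level of that list was lower in Dgcr8 KO, but its members moved in both directions. Integrin genes had 4 rises and 1 fall of 11, the fall being one that the stricter filter left out, with Itgb4 at 8.81, 12.5 and 11.4 CPM in wild-type and 40.6, 45.4 and 36.9 CPM in Dgcr8 KO (log2 change 1.93, SE 0.158, adjusted p = 2.50e-11) and Itgav at 110, 110 and 98.5 CPM in wild-type and 251, 243 and 251 CPM in Dgcr8 KO (log2 change 1.23, SE 0.0749, adjusted p = 4.81e-14).

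Of 13 tested neuronal adhesion and synapse genes 6 rose and 3 fell. Of the 13, 2 reached 3 CPM in no wild-type library and 1 in no Dgcr8 KO library, each of them a call. Under the stricter filter 3 of 9 rose and 2 fell. Slitrk5, a neuronal membrane protein gene, was at 3.39, 4.18 and 2.997 CPM in wild-type and 29.3, 26.3 and 20.3 CPM in Dgcr8 KO (log2 change 2.82, SE 0.247, adjusted p = 1.02e-10). Slit2, an axon guidance ligand, was at 25.9, 24.2 and 27.4 CPM in wild-type and 4.25, 5.05 and 4.86 CPM in Dgcr8 KO (log2 change -2.43, SE 0.207, adjusted p = 5.58e-11). Both had signal in every wild-type library, and their groups were separate.

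Transcription factor families differed in how many members were called. HOX genes, which set position along the body axis and are usually silent in ESCs, had 9 rises and 3 falls of 17 tested, 4 of them below 3 CPM in each wild-type library. With the stricter filter 3 of 9 rose and 2 fell. Hoxa9 was at 1.53, 2.198 and 1.69 CPM in wild-type and 21.03, 22.4 and 17.4 CPM in Dgcr8 KO (log2 change 3.45, SE 0.295, adjusted p = 5.79e-11), and Hoxa5 was at 1.86, 1.54 and 1.87 CPM in wild-type and 14.2, 13.5 and 13.8 CPM in Dgcr8 KO (log2 change 2.91, SE 0.289, adjusted p = 1.27e-09). Hoxd4 was at 0.508, 1.099 and 0.375 CPM in wild-type and 5.52, 7.27 and 6.28 CPM in Dgcr8 KO (log2 change 3.24, SE 0.427, adjusted p = 2.34e-07), and Hoxa2 was at 0.339, 0.4396 and 0.562 CPM in wild-type and 4.89, 6.06 and 5.87 CPM in Dgcr8 KO, a ratio of 12.7, with a counting interval of 5.88 to 32.5. Rises came from both the HOXA and the HOXD cluster. Among 18 FOX genes 4 rose (2 of 15 with the stricter filter), led by Foxd1 at 2.03, 1.32 and 1.499 CPM in wild-type and 25.1, 21.8 and 27.1 CPM in Dgcr8 KO (log2 change 3.85, SE 0.301, adjusted p = 9.50e-12) and with Foxp1 at 17.6, 15.8 and 13.5 CPM in wild-type and 60.1, 47.5 and 59.3 CPM in Dgcr8 KO (log2 change 1.82, SE 0.141, adjusted p = 7.52e-12). Of 21 KLF and SP genes 4 rose, including Sp8 at 5.93, 5.49 and 5.81 CPM in wild-type and 28.9, 30.7 and 30.2 CPM in Dgcr8 KO (log2 change 2.36, SE 0.185, adjusted p = 9.90e-12). SOX genes had 3 rises and 1 fall of 10, and the fall was lost without wild-type replicate 2 or Dgcr8 KO replicate 2. The rises included Sox13 at 24.6, 25.9 and 26.4 CPM in wild-type and 76.7, 76.1 and 82.02 CPM in Dgcr8 KO (log2 change 1.61, SE 0.105, adjusted p = 2.20e-13) and Sox6 at 3.05, 4.396 and 2.44 CPM in wild-type and 11.3, 9.09 and 10.3 CPM in Dgcr8 KO (log2 change 1.66, SE 0.262, adjusted p = 4.33e-06). In the ETS family 3 rose and 1 fell of 16, the fall being lost without Dgcr8 KO replicate 2, and Elf1 was at 23.4, 21.8 and 20.2 CPM in wild-type and 80.3, 84.8 and 75.1 CPM in Dgcr8 KO (log2 change 1.87, SE 0.113, adjusted p = 3.64e-14). T-box genes had 2 falls and 1 rise of 8, the rise being lost without wild-type replicate 3 or Dgcr8 KO replicate 2, the falls being Tbx21 (log2 change -3.16, SE 0.433, adjusted p = 4.44e-07) and Tbx20 (log2 change -1.97, SE 0.291, adjusted p = 1.50e-06), neither of which the stricter filter tested. In contrast, 352 genes named Zfp had 8 rises and 9 falls and a median of -0.03.

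Genes of chromatin and of the transcription and translation machinery stayed mostly within the fold limit. Of 38 RNA polymerase II and Mediator genes limma, edgeR and DESeq2 called none, while 21 had an unadjusted p under 0.05 and the median was -0.17. Polr2a, the largest subunit of the polymerase, was at 444, 397 and 476 CPM in wild-type and 317, 332 and 355 CPM in Dgcr8 KO (log2 change -0.39, adjusted p = 5.29e-05). Of 28 Polycomb genes limma called none and edgeR and DESeq2 called 1 each, as did limma without wild-type replicate 1, 2 or 3 or without Dgcr8 KO replicate 3, with 17 at an unadjusted p under 0.05 and a median of 0.02. Mtf2, which recruits Polycomb complexes, was at 804, 703 and 696 CPM in wild-type and 473, 499 and 510 CPM in Dgcr8 KO (log2 change -0.57). Of 16 DNA methylation and TET genes the 3 tools called none, and 11 had an unadjusted p under 0.05. Tet1, which oxidises methylcytosine, was at 917, 859 and 736 CPM in wild-type and 997, 1019 and 989 CPM in Dgcr8 KO (log2 change 0.26, adjusted p = 0.00282).

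Cytosolic ribosomal protein genes had 1 call among 82, the rise of Rpl10l (adjusted p = 4.77e-11), a paralogue of Rpl10, but 54 were lower at an adjusted p under 0.05 and the median was -0.30. Oxidative phosphorylation genes had no call among 78 by limma, edgeR or DESeq2 with all 6 libraries, 42 had an unadjusted p under 0.05, and 37 were lower at an adjusted p under 0.05. Atp5b, an ATP synthase subunit, was at 826, 808 and 856 CPM in wild-type and 691, 702 and 620 CPM in Dgcr8 KO (log2 change -0.31). Without Dgcr8 KO replicate 2, 2 of the 78 were called lower, and without wild-type replicate 2, 1 was called higher. Replication-dependent histone genes had 8 falls of 60. Hist1h2bf was at 164, 164 and 218 CPM in wild-type and 67.1, 54.9 and 61.2 CPM in Dgcr8 KO (log2 change -1.57, SE 0.103, adjusted p = 2.63e-13), and Hist1h4k was at 366, 319 and 495 CPM in wild-type and 157, 150 and 187 CPM in Dgcr8 KO (log2 change -1.24, SE 0.106, adjusted p = 6.14e-11). Wild-type replicate 3 was the highest library for both, and without it the falls numbered 5. These histone and ribosomal protein genes have near-identical copies, and unique mapping may leave reads of some copies uncounted.

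With the ESCC hairpins included, 24 of 66 tested microRNA genes and host transcripts were called higher and 5 lower. Of the 66, 14 reached 3 CPM in no wild-type library, so part of that count follows from the filter. With the stricter filter 6 of 33 were called higher and 1 lower. The calls outside the ESCC clusters were then Mir363, Mir7079 and Mirlet7a-1. Mir130a was at 0.678, 1.32 and 1.69 CPM in wild-type and 10.2, 6.26 and 6.89 CPM in Dgcr8 KO (log2 change 2.65, SE 0.378, adjusted p = 9.14e-07), and Mir433, from the imprinted Dlk1 region, was at 0.169, 1.099 and 0.937 CPM in wild-type and 5.31, 5.05 and 4.66 CPM in Dgcr8 KO (log2 change 2.96, SE 0.467, adjusted p = 4.26e-06). Mir19b-2, of the miR-106a cluster on chromosome X, was at 0.339, 0.659 and 0.562 CPM in wild-type and 4.89, 5.05 and 5.27 CPM in Dgcr8 KO, a ratio of 10, with a counting interval of 4.82 to 24. Mir130a, Mir433 and Mir19b-2 were each below 3 CPM in every wild-type library and passed the filter only through Dgcr8 KO. Their reads cover the hairpin and can belong to the uncut primary transcript. Calls lower numbered 3 without wild-type replicate 3 and 2 without Dgcr8 KO replicate 2. By annotated class, 35.3% of 68 microRNA genes were called higher, 19.14% of 256 pseudogenes, 12.5% of 903 long noncoding RNA genes and 9.13% of 11558 protein-coding genes. This order did not hold without the filter, where the shares called higher were 7.13% of 828 microRNA genes, 5.18% of 3805 pseudogenes, 8.32% of 4472 long noncoding RNA genes and 8.84% of 16955 protein-coding genes. Small nucleolar RNA genes had 7 falls among 193 and a median of -0.38.

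Chromosome 8 had the highest share of falls among the autosomes. Of its 778 tested genes 68 fell (8.74%) and 66 rose (8.48%), and 57.8% of its genes were below 0. Its median relative to all genes was -0.122, -0.139 and -0.137 in the 3 Dgcr8 KO libraries (mean -0.133, SD 0.00903, n = 3). In wild-type the same median lay between -0.0153 and 0.0244. The other autosomes had between 2.72% and 6.46% of their genes called lower, and their medians ranged from -0.0485 on chromosome 19 to 0.0921 on chromosome 12. No test was run over genes, since they are not replicates. Klf2, Junb, Jund and Irf2 also lie on chromosome 8, and they rose.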

How the data were processed

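Total and 4sU-labelled RNA had been sequenced as single-end stranded libraries. The authors deposited raw counts, whole numbers of reads for each gene. As the file header and the submitters' processing notes give it, reads were trimmed with cutadapt 1.14, mapped uniquely to mm10 with STAR 2.5.3a and counted over GENCODE M14 exons with featureCounts 1.5.3 at strand setting 2. Biotypes came from GENCODE M21. The 92 spike-in rows held 1 count, so no absolute scaling was possible, and every column of per-sample values was mapped.

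Counts of the 6 4sU libraries were scaled by TMM factors (edgeR 4.0.16) and fitted with voom weights in limma 3.58.1 under R 4.3.3, genotype only, two-sided. Genes needed 3 CPM in 3 libraries, and calls an adjusted p below 0.05 with a log2 change beyond 1 in either direction. Intervals of ratios are exact at 95%. A group with no read was set to a floor of 3 counts per library. DESeq2 1.42.0, edgeR, other scalings, filters and left-out replicates were alternatives.

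The members and the 69 gene lists were chosen with earlier results of these data known, so no set test was run and no p was adjusted over a list. Genes named were Dgcr8, the 12 largest rises and 12 largest falls among separated calls with a mean of at least 5 CPM and a symbol that is not a predicted one, up to 4 called separated members per list by size of change, or the 2 most transcribed members of a list without calls, and the cell type markers. Other genes were chosen after their values were seen. Promoters printed were those of the 2 largest rises and falls with a start within 500 bases of the gene's 5′ end. The comparison of promoter features was void, because 70.2% of tested genes matched a promoter. On simulated counts for 13352 genes, limma recovered 99.48% of 192 changed genes with 1 false call. Some genes that the rule names are not reported here.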

Additional observations from a re-analysis of the deposited data

How the results depend on the processing

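The main comparison gave 1920 calls, and other tools and scalings gave similar numbers: 1917 by edgeR, 1909 by DESeq2, 1812 by limma-trend, 1931 with sample quality weights, 1925 with RLE factors, 1879 with upper-quartile factors and 1931 with library size only. Upper-quartile factors lowered the share of rises to 62.1% and the median change of all genes to -0.065. The median was 0.0103 with library size only and -0.0175 with all 12 libraries in the model (1917 calls). Without a filter beyond 1 count, 3690 of 29038 genes were called, 2281 higher and 1409 lower (61.8% higher), with a median of 0.0151. With 3 CPM required in all 6 libraries, 1057 were called, 755 higher and 302 lower (71.4% higher). The first tests more genes and the second fewer. With no limit on the fold change 7298 genes passed, 3825 higher and 3473 lower (52.4% higher). Leaving out each replicate in turn gave 1918 to 1969 calls, 1269 to 1328 higher and 620 to 676 lower, 65.2% to 67.8% higher, and a median of -0.0147 to 0.000799.

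With a replicate block 1894 genes were called, 1267 of them higher. Deviations of same-numbered libraries correlated at -0.087, 0.075 and -0.023, so the numbers do not pair the samples. Of 3616 values of 218 named genes under all alternatives, 3555 kept direction and call, 54 lost the call, 6 gained it and 1 turned sign: Ets2, at 0.06, was -0.0064 with upper-quartile factors. The cause was not tested. Promoter alternatives were not run.

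Libraries held 4593914 to 6005526 counts, so genes near the minimum of 3 CPM rest on few reads and their changes are imprecise.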

Other observations

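Of 23 listed X-linked germline genes of the Xlr, Rhox and related families 1 was tested, Tex11, which was not called (log2 change 0.44, adjusted p = 0.204). Without the filter 17 were tested, of which 5 fell and none rose by limma, against 1409 lower and 2281 higher of all 29038 genes. Rhox6 (7 reads in wild-type and 5 in Dgcr8 KO), Rhox9 (10 and 9), Rhox13 (4 and 3) and Taf7l (8 and 5) had similar reads in both groups. The 3 genes given next were chosen after their values were seen, for reads in wild-type and none in Dgcr8 KO. Rhox5, a homeobox gene of the Rhox cluster, had 18, 14 and 15 reads in wild-type and 0 in each Dgcr8 KO library, at least 4.79-fold lower at a floor of 3 counts per library (limma without the filter, adjusted p = 9.59e-11). Rhox1 had 18, 6 and 11 reads against 0, at least 3.45-fold lower (adjusted p = 8.67e-09). Xlr3a had 8, 8 and 15 reads against 0, at least 3.18-fold lower (adjusted p = 2.24e-08). Rhox and Xlr genes have close copies, so uniquely mapped reads may leave some uncounted. Crabp1, a retinoic acid binding protein gene, had 20, 6 and 16 reads in wild-type and 0, 0 and 2 in Dgcr8 KO (adjusted p = 9.49e-07). Dab2, an endocytic adaptor of primitive endoderm, had 15, 8 and 16 reads against 1, 0 and 1 (adjusted p = 2.48e-06). In the opposite direction, Ifih1, which encodes the RNA sensor MDA5, had no read in wild-type and 9, 10 and 8 in Dgcr8 KO (adjusted p = 1.22e-08). Tenm1, a teneurin related to Tenm2, had 5, 0 and 2 reads in wild-type and 13, 26 and 26 in Dgcr8 KO (adjusted p = 4.64e-06).

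Of 24 tested imprinted genes, which are transcribed from 1 parental copy, 4 fell (2 with 3 CPM required in all 6 libraries) and 15 were lower at an adjusted p under 0.05, with a median of -0.44. Without wild-type replicate 1, 1 was called higher. Plagl1, an imprinted zinc finger gene, was at 159, 146 and 151 CPM in wild-type and 58.4, 59.98 and 65.8 CPM in Dgcr8 KO (log2 change -1.31, SE 0.0846, adjusted p = 1.71e-13). Usp29 was at 10.2, 8.13 and 10.5 CPM in wild-type and 0.425, 0.808 and 1.82 CPM in Dgcr8 KO (log2 change -3.31, SE 0.403, adjusted p = 5.84e-08), and Igf2, a fetal growth factor gene, was at 5.76, 3.52 and 3.37 CPM in wild-type and 1.49, 1.21 and 1.62 CPM in Dgcr8 KO (log2 change -1.47, SE 0.369, adjusted p = 0.00127). Of 195 solute carrier genes 20 rose and 18 fell (8 fell with 3 CPM required in all 6 libraries). Slc52a3, a riboflavin transporter gene, was at 4.92, 5.06 and 3.75 CPM in wild-type and 32.5, 36.8 and 33.2 CPM in Dgcr8 KO (log2 change 2.89, SE 0.205, adjusted p = 1.20e-12). Slc1a1, a glutamate transporter gene, was at 15.3, 9.89 and 13.5 CPM in wild-type and 0.8499, 2.22 and 0.608 CPM in Dgcr8 KO (log2 change -3.48, SE 0.395, adjusted p = 1.68e-08), and Slc2a5, a fructose transporter gene, was at 6.78, 5.06 and 8.06 CPM in wild-type and 0.637, 0.404 and 1.42 CPM in Dgcr8 KO (log2 change -3.01, SE 0.431, adjusted p = 9.51e-07). Usp29, Igf2, Slc1a1 and Slc2a5 were each below 3 CPM in every Dgcr8 KO library and passed the filter only through wild-type.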
